A study of Mus musculus with 6 samples.

Results

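Anoctamins, ClC proteins and the SLC12 cotransporters move or exchange chloride across the membranes of sensory neurons, and 8 of their genes are described here in dorsal root ganglion neurons of the mouse. They are the anoctamins Ano1, Ano3 and Ano6, the cotransporters Slc12a2 and Slc12a5, and the ClC genes Clcn3, Clcn4 and Clcn6. The genes were taken by name, with all 20 of their probe sets, out of 18194 genes and 45037 probe sets on the array. Ano1 was picked because it was seen to be low in neurons of the title code L6-R, so its values between codes are a description and carry no test. The set was thus picked in part from the measured signals of Ano1 between codes, while the other 7 genes belong to the same families.

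RNA was measured on 6 Affymetrix mouse arrays, each from 1 pool of neurons, with 1 array for each of 3 title codes and 2 diameter classes. The L3-B pools held 50 control neurons (one pool of big diameter, one of medium to small diameter). The pools of L3-S and of L6-R each held 20 neurons, again one pool per diameter class, labelled with DiI, a fat-soluble dye that travels from the axon back to the soma. Both dyed codes thus differ from L3-B in the number of neurons as well as in the dye, and these cannot be told apart. The sources used here do not give the strain, the age, what the codes mean, where the dye was put or how many animals were used, or whether the pools came from separate animals.

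Sensory neurons of the adult ganglion keep a high internal chloride concentration, because Slc12a2 (NKCC1) brings chloride in with sodium and potassium while Slc12a5 (KCC2), which carries chloride out with potassium, is scarce in them. Opening a chloride channel, such as the GABA-A receptor or the calcium-activated channel Ano1, therefore tends to depolarise these cells. Ano1 is known from small nociceptors of the mouse and rat, where it responds to heat and to calcium released after bradykinin. Ano3 binds the sodium-activated potassium channel Kcnt1 in rat nociceptors, and Ano6 moves lipids between the leaflets of the plasma membrane. ClC-3, ClC-4 and ClC-6, encoded by Clcn3, Clcn4 and Clcn6, exchange chloride for protons in the membranes of endosomes and related compartments.

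Values are signal intensities, and differences are those of log2(signal + 32), where the added 32 is near the background of such arrays and shrinks differences between dim signals. Each probe set has its own scale, so levels of different genes are not compared. For each gene the probe set with the highest mean leads. The number of arrays limits the precision, and the p-values rest on the scatter of these pools alone, which may be in part technical. In bulk RNA, fewer cells of a type and less RNA per cell cannot be told apart.

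The pools looked like sensory neurons. All 10 pan-neuronal and sensory neuron markers were tested, led by Nefl, Nefm and Prph, and 0 of them passed the test in any of the 4 comparisons. Their summed signal was 49650 to 66379 over the arrays. The diameter classes were not resolved: 0 of 9097 genes passed the limma test between big and medium to small pools (320 had an unadjusted p under 0.05), and the large myelinated-fibre markers (Nefh, Kcna1 and Vamp1 lead them) had a median difference of 0.16 log2. Markers of small-diameter neurons stood higher in the big pools in 9 of 9, with a median of 0.26 and 0 past the threshold. Between codes the pools differed in the RNA of cell type markers, which does not tell cell numbers from RNA per cell. The summed signal of large-fibre markers was 17604 and 19714 in L6-R and 27240 to 36313 in the other 4 arrays, with 5 of 8 tested markers lower in L6-R than in L3-B (2.85% of all genes were lower and 4.66% higher there). Small-diameter markers, led by Ret, Calcb and P2rx3, summed to 20315 and 16189 in L6-R and 9606 to 12619 elsewhere. Of these markers 5 of 9 passed as higher in L6-R than in L3-B, and only 7 of 9 had a positive difference. Satellite glia and Schwann cell markers, led by S100b, Pmp22 and Apoe, summed to 12243 to 18232 in L3-B and L3-S and to 16837 and 22715 in L6-R, and 5 of 11 were higher in L6-R than in L3-B. Connective tissue and vessel markers (Rgs5, Dcn and Col1a2 lead) summed to 349 and 483 in L3-B and 1150 to 2044 in the dyed codes, with Col1a1, Pecam1, Cdh5 and Tagln under 32 on all arrays. Blood and immune markers (Csf1r, C1qb and Cd74 lead) summed to 168 to 429, and 7 of 11, Ptprc and Cd68 among them, were under 32 on all arrays. The ratio of 3' to 5' Actb control signal, which can be larger where RNA is broken down, ran from 3.73 to 13.9 and was 8.31 and 8.42 in L6-R. The part of these differences in the results below was not tested.

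By their leading probe sets, the 3 anoctamins were each lowest in the L6-R arrays. Ano1 was picked for this, and Ano3 and Ano6 did not pass the test. Over all genes, both L6-R arrays lay below both L3-S arrays in 27.3% and below both L3-B arrays in 24.1%. The promoter windows of Ano1, Ano3 and Ano6 are shown as a description of these genes only. The windows are the 250 bases before a start site of the gene in RefSeq (build GRCm38.p6), 5′ to 3′ on the gene's strand. Capitals mark matches to any of 5 motifs searched on both strands, namely the TATA box TATAAA, the GC box GGGCGG, the E-box CACGTG, the cyclic AMP response core TGACGT and the CAAT box CCAAT, none of which is contained in another.
Ano1, chr7:144738574-144738823, minus strand: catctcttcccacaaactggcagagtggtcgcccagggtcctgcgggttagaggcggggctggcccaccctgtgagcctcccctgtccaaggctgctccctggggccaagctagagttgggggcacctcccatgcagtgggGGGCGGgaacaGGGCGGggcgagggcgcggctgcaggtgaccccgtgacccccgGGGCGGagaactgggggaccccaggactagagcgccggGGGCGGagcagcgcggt
Ano3, chr2:110950245-110950494, minus strand: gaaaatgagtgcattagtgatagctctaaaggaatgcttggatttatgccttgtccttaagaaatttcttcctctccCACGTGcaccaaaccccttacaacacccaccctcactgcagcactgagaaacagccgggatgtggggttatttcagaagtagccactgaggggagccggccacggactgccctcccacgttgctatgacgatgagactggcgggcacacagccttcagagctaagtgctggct
Ano6, chr15:95790593-95790842, plus strand: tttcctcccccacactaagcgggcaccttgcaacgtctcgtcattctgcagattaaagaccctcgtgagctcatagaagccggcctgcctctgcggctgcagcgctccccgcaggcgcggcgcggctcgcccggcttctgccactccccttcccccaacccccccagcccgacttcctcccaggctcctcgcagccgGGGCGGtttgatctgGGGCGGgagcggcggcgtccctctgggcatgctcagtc
The Ano1 window held 4 GC boxes and the Ano6 window 2, while the Ano3 window held 0 of them and 1 E-box. The GC box was found in 32.7% and the E-box in 6.02% of 32851 such windows of all genes. The windows of Ano1 and Ano6 were 72.0% and 68.4% G and C, that of Ano3 52.4%, and the median of all windows was 52.4%. Ano3 has a second listed start whose window held 1 TATA box (present in 12.4% of all windows) and no GC box or E-box. In all, 7 of the 8 genes had a window in the table used. A match is a description of these letters and not a bound site.

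Ano1 (chromosome 7) had signal intensities of 66 and 86 for L3-B (big, then medium to small), 248 and 571 for L3-S, and 7.8 and 18 for L6-R. Both L3-S arrays were above every other array, both L6-R arrays were below every other array and under 32, and the codes did not overlap. On the log2 scale L6-R stood at -3.20 ± 0.27 (SE, n = 2 arrays per code) against L3-S, a 9.22-fold lower value that is shrunk by the added 32. Against L3-B it stood at -1.27 ± 0.27, and L3-S stood at 1.93 ± 0.27 against L3-B. The value against L3-B depended on the processing, from -2.56 with a pseudocount of 1 to -0.63 with the mean of probe sets. The gap between L6-R and L3-S was -2.82 in the big pair and -3.59 in the medium to small pair. The same 2 L3-S arrays enter both of these comparisons, so the 3 values are not independent of each other. These are the values for which the gene was picked.

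The leading Ano1 probe set, 1459713_s_at, is of a design that can bind more than 1 transcript. The other Ano1 probe set, 1426571_at, was under 32 on all arrays, with 30 and 20 in L3-S, 1.2 and 4.1 in L3-B, and 2.1 and 3.5 in L6-R. Its highest arrays were thus also those of L3-S, while its L6-R and L3-B arrays overlapped. L6-R stood at 0.01 against L3-B, where the leading probe set gave -1.27. In this range differences cannot be resolved.

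Diameter was not used to pick Ano1. Its signal was lower in the big pool of every code, with differences of -0.27 in L3-B, -1.11 in L3-S and -0.33 in L6-R on the log2 scale. The mean difference of big minus medium to small was -0.57 ± 0.22 (SE, n = 3 arrays per class, limma adjusted p = 0.998), with a 95% interval from -1.07 to -0.07 before adjustment, and did not pass.

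Over the 6 arrays, the 5 tested genes most like Ano1 were Ppm1e, Laptm4b, Mrps30, Relt and Ufsp1, with Pearson correlations of 0.988 to 0.995 over 6 arrays that share these pools. Relt, a member of the tumour necrosis factor receptor superfamily, had 103 and 123 for L3-B, 200 and 252 for L3-S, and 73 and 87 for L6-R. Ppm1e, a protein phosphatase, had 451 and 456, 640 and 742, and 336 and 352 in the same order. With 6 arrays and 9097 genes, correlations of this size are a description only. Trpv1, the heat- and capsaicin-gated channel of nociceptors that works beside Ano1, was highest where Ano1 was lowest: it had 19 and 20 for L3-B, 108 and 56 for L3-S, and 616 and 392 for L6-R. Trpv1 rose by 2.24 ± 0.25 in L6-R against L3-S (n = 2 arrays per code, limma adjusted p = 0.00367). In L3-S against L3-B it stood higher, as Ano1 did, at 1.12 ± 0.25 (adjusted p = 0.0999). Its mean log2 value was 5.68 in L3-B, 6.80 in L3-S and 9.03 in L6-R. Trpv1 thus passed the filter on dim genes through its L6-R arrays, which limits its test. With no filter, the rise against L3-S had a limma adjusted p of 0.0245.

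**Figure D1:**
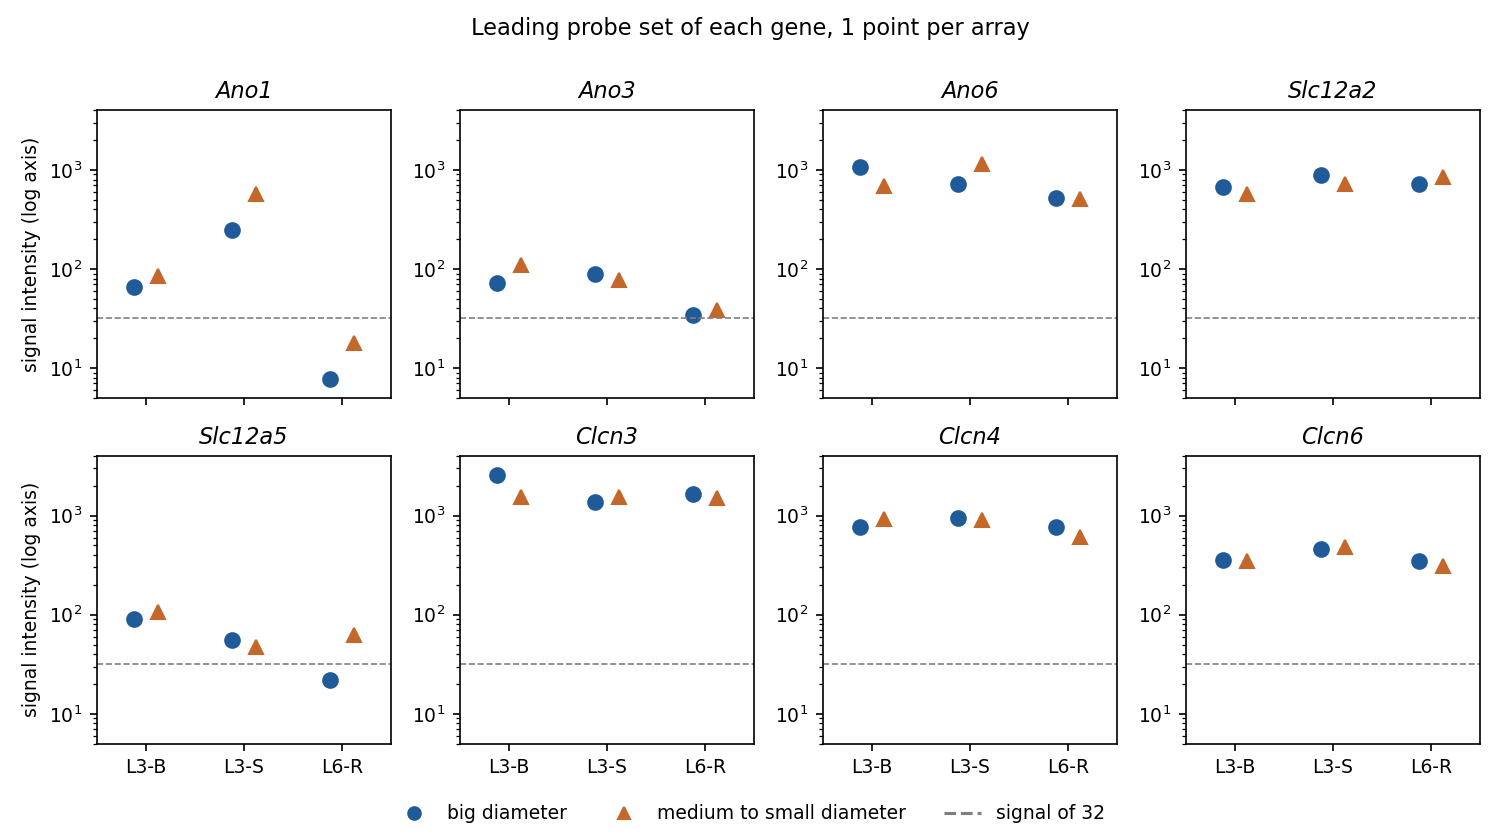
Signal intensity (log axis) of the leading probe set of each of the 8 genes by title code, with 1 point per array (circles, big diameter; triangles, medium to small diameter) and a dashed line at a signal of 32. Ano1 was at 248 and 571 in L3-S and at 7.8 and 18 in L6-R, while Clcn4 stayed between 606 and 956 and Clcn6 between 309 and 478.

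Ano3 (chromosome 2) had signal intensities of 73 and 111 for L3-B, 89 and 78 for L3-S, and 34 and 39 for L6-R. Both L6-R arrays were below the other 4, and those of L3-B and L3-S overlapped. L6-R stood at -0.75 ± 0.24 against L3-S (n = 2 arrays per code, limma adjusted p = 0.157) and at -0.84 ± 0.24 against L3-B (adjusted p = 0.076). Neither passed, with 95% intervals from -1.29 to -0.20 and from -1.38 to -0.29 before adjustment. The second comparison crossed the threshold (adjusted p = 0.0416) without the L3-B big array and (0.0448) without either L3-S array. It was -0.60 (adjusted p = 0.227) without the L3-B medium to small array, and its adjusted p was 0.402 and 0.405 without either L6-R array. The other Ano3 probe set was under 32 on all arrays.

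Ano6 (chromosome 15) had signal intensities of 1066 and 682 for L3-B, 726 and 1152 for L3-S, and 521 and 513 for L6-R. The L6-R arrays were again the lowest, and the diameter classes lay in opposite order in L3-B and L3-S. L6-R stood at -0.79 ± 0.31 against L3-S (n = 2 arrays per code, limma adjusted p = 0.252) and at -0.69 ± 0.31 against L3-B (adjusted p = 0.237), and neither passed. Single arrays moved both values. The first was -0.31 when the medium to small L3-S array was left out and -1.27 when the big one was, while without the L3-B big array the second was -0.22 and without the L3-B medium to small array -1.16. The second Ano6 probe set, 1455309_at, had 293 and 310 for L3-B, 305 and 293 for L3-S, and 169 and 187 for L6-R, with differences of -0.66 and -0.67. The 2 probe sets of Ano6 thus gave differences of nearly the same size in both comparisons.

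Ano4, an anoctamin outside the 8, was brighter than 32 on all arrays and did pass against L3-B. It had signal intensities of 1579 and 1656 for L3-B, 1218 and 932 for L3-S, and 845 and 699 for L6-R, and fell by 1.04 ± 0.23 in L6-R against L3-B (n = 2 arrays per code, limma adjusted p = 0.0308). The call was lost in 5 of 19 alternatives, with a pseudocount of 1 (-1.07, adjusted p = 0.0626), with no filter (adjusted p = 0.0661) and without the L3-B medium to small array (-0.85, adjusted p = 0.0959), the L6-R big array (-1.10, adjusted p = 0.191) or the L6-R medium to small array (-0.99, adjusted p = 0.244). Against L3-S its difference of -0.45 did not pass (adjusted p = 0.391). Ano10, the other anoctamin tested, went the other way in L6-R and did not pass in any comparison. It had signal intensities of 130 and 230 for L3-B, 185 and 168 for L3-S, and 244 and 236 for L6-R. L6-R stood at 0.38 against L3-S (limma adjusted p = 0.545) and at 0.40 against L3-B (adjusted p = 0.437). Ano8 and Ano9 were too dim to test.

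Slc12a2, the chloride importer, lies on chromosome 18. Its leading probe set had signal intensities of 666 and 576 for L3-B, 886 and 717 for L3-S, and 714 and 853 for L6-R. All 4 dyed arrays were above both L3-B arrays, and L3-S and L6-R overlapped. Arrays that lay wholly above L3-B were common, at 22.4% of all genes for L3-S and 25.8% for L6-R. L3-S stood at 0.35 ± 0.24 against L3-B (n = 2 arrays per code, limma adjusted p = 0.745), L6-R at 0.32 ± 0.24 (adjusted p = 0.496), and L6-R at -0.03 ± 0.24 against L3-S (adjusted p = 0.973, 95% interval from -0.57 to 0.51).

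The dimmer Slc12a2 probe sets differed more. The probe set 1417623_at had 70 and 129 for L3-B, 167 and 168 for L3-S, and 232 and 202 for L6-R, which is 0.95 for L6-R against L3-B. The probe set 1448780_at had 31 and 19, 32 and 48, and 94 and 113 in the same order, which is 1.26. All 3 probe sets were higher in L6-R than in L3-B, by 0.32 to 1.26. When every probe set was tested as a feature of its own, 1448780_at passed in this comparison (limma adjusted p = 0.0263) and 1417623_at did not (adjusted p = 0.0943). With the mean of its probe sets, Slc12a2 passed as well (0.84, adjusted p = 0.0349). The call on Slc12a2 in L6-R against L3-B therefore depended on the probe set.

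Slc12a5, the chloride exporter (chromosome 2), had signal intensities of 90 and 106 for L3-B, 55 and 47 for L3-S, and 22 and 63 for L6-R. Both L3-B arrays were above the 4 dyed arrays, and the L6-R big array was the only one under 32. Arrays that lay wholly below L3-B were found for 16.1% of all genes for L3-S and 24.1% for L6-R. L3-S stood at -0.65 ± 0.27 against L3-B (n = 2 arrays per code, limma adjusted p = 0.466) and L6-R at -0.87 ± 0.27 (adjusted p = 0.106), with a 95% interval from -1.49 to -0.24 before adjustment. The second of these crossed the threshold with only the codes compared (limma adjusted p = 0.0433), the same fit as without either L3-S array. Without the L6-R big array it was -0.46. L6-R stood at -0.22 ± 0.27 against L3-S (adjusted p = 0.761). The other Slc12a5 probe set was under 32 on all arrays.

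Within an array, the gap between the importer and the exporter was wider in the dyed pools. Slc12a2 minus Slc12a5, as log2 values of their leading probe sets, was 2.51 and 2.14 for L3-B, 3.40 and 3.24 for L3-S, and 3.80 and 3.22 for L6-R. All 4 dyed arrays lay above both L3-B arrays. The gap was wider by 1.00 in L3-S and by 1.19 in L6-R than in L3-B, and no test was run. How often other pairs of genes differ in this way was not counted. The largest gap, 3.80 in the L6-R big array, rests on a Slc12a5 signal of 22, which is under 32, so its size is not resolved. The gap shows an unequal difference of 2 probe sets between pools and not the ratio of the transcripts. With a pseudocount of 1 in place of 32 the gap in L6-R against L3-B was 1.71, and with 100 it was 0.78.

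**Figure D2:**
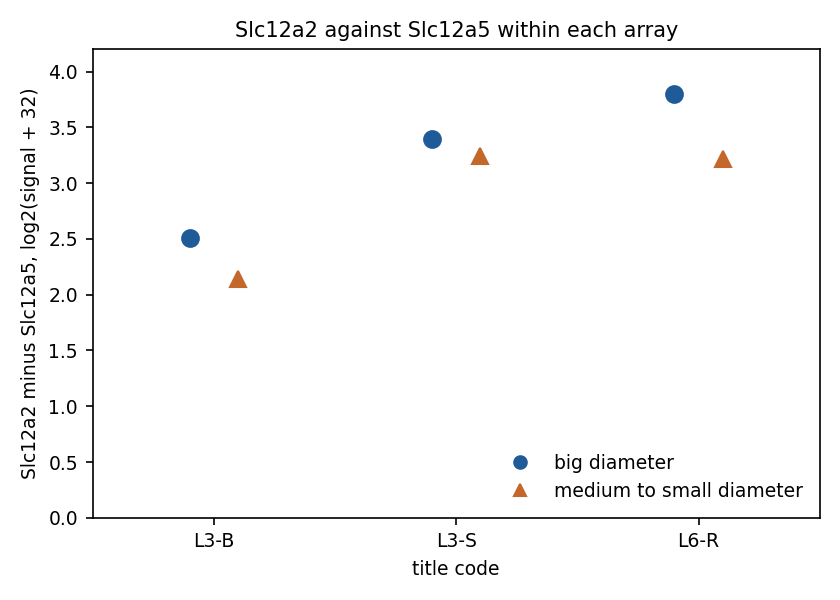
Difference between the leading probe sets of Slc12a2 and Slc12a5 within each array, in log2(signal + 32), by title code (circles, big diameter; triangles, medium to small diameter). The L3-B arrays lie at 2.51 and 2.14 and the 4 dyed arrays between 3.22 and 3.80.

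The ClC genes spanned 0.58 to 0.88 log2 over the arrays, less than each of the anoctamins (1.11 to 3.92) or Slc12a5 (1.37), all on the log2(signal + 32) scale. Clcn3 (chromosome 8) had signal intensities of 2552 and 1549 for L3-B, 1374 and 1551 for L3-S, and 1653 and 1502 for L6-R, where the L3-B big array was highest and all codes overlapped. Clcn4 (chromosome 7) had 768 and 921, 956 and 898, and 770 and 606 in the same order, and its L6-R arrays were below those of L3-S. Clcn6 (chromosome 4) had 356 and 349, 460 and 478, and 350 and 309, with both L3-S arrays above the other 4.

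Differences of the leading probe sets of the ClC genes between codes were at most 0.47 in size. Another Clcn3 probe set, 1433486_at, stood at -0.49 in L6-R against L3-B. Clcn6 stood at -0.47 ± 0.22 in L6-R against L3-S (n = 2 arrays per code, limma adjusted p = 0.343, 95% interval from -0.98 to 0.03). Clcn3 stood at -0.44 ± 0.27 in L3-S against L3-B (adjusted p = 0.69), and Clcn4 at -0.42 ± 0.24 in L6-R against L3-S (adjusted p = 0.448). Probe sets did not always share a direction: the second Clcn4 probe set stood at 0.07 and the second Clcn6 probe set at 0.30 in L6-R against L3-S. That Clcn6 probe set was dim, with signals of 23 to 56. The leading Clcn3 probe set, 1438366_x_at, is also of a design that can bind more than 1 transcript. The other 4 Clcn3 probe sets stood between -0.36 and 0.35 in L6-R against L3-S. The value of 0.35 came from 1441248_at, which was under 32 on all arrays.

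**Figure D3:**
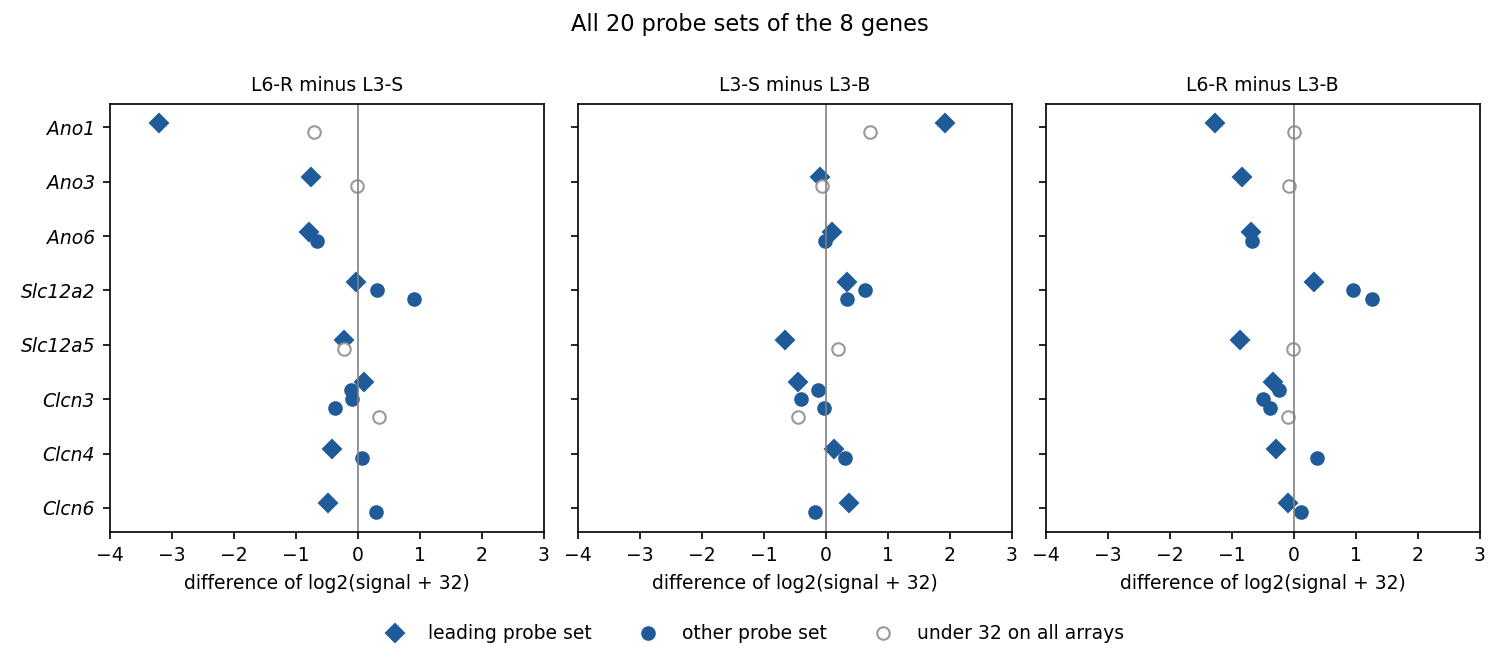
Difference of log2(signal + 32) for all 20 probe sets of the 8 genes in the 3 comparisons of codes (diamonds, leading probe sets; filled circles, others; open circles, probe sets under 32 on all arrays). The 2 Ano6 probe sets lie close together, while the 3 Slc12a2 probe sets spread from 0.32 to 1.26 in L6-R minus L3-B.

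All 8 genes passed the filter on dim genes, which kept the upper 50% of genes by mean value (at least 6.41 log2). Slc12a5 at 6.52, Ano3 at 6.63 and Ano1 at 6.97 lay near it, and their L6-R means of 6.16, 6.10 and 5.48 were under it. The L3-S mean of Slc12a5, 6.38, was under it too. Slc12a5 thus passed the filter through L3-B (7.02), which limits its tests against L3-B. Between L6-R and L3-S, 0 of the 7 other genes passed the limma test, with 3.18% of all genes passing, and 2 of the 7 (Ano3 and Ano6) had an unadjusted p under 0.05. In L6-R against L3-B, 0 of 7 passed, with 7.51% of all genes passing, and 2 (Ano3 and Slc12a5) had an unadjusted p under 0.05. In L3-S against L3-B, 0 of 7 passed, with 1.02% of all genes passing, and 1 (Slc12a5) had an unadjusted p under 0.05. Between diameter classes 0 of 8 passed, with 0% of all genes passing, and 1 (Ano1) had an unadjusted p under 0.05. Small unadjusted p-values were common among the 9097 genes tested. An unadjusted limma p under 0.05 was found for 1422 in L6-R against L3-S and for 1969 in L6-R against L3-B. The same held for 924 in L3-S against L3-B and for 320 between diameter classes.

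Over the 7 genes, the median difference of L6-R against L3-S was -0.42, against -0.01 over all genes tested. In 4 of the 7 both L6-R arrays lay below both L3-S arrays, which held for 27.3% of all genes. Against L3-B the median was -0.33 (0.02 over all genes). In 3 of the 7 both L6-R arrays lay below both L3-B arrays, which held for 24.1% of all genes. For Slc12a2 both L6-R arrays lay above both L3-B arrays, which held for 25.8% of all genes. L3-S against L3-B had a median of 0.10 (0.03 over all genes). In 1 of the 7 (Slc12a5) both L3-S arrays lay below both L3-B arrays, which held for 16.1% of all genes. For Slc12a2 and Clcn6 both L3-S arrays lay above both L3-B arrays, which held for 22.4% of all genes. The 3 comparisons of codes share arrays and are not independent of each other. Calls in all of them were made on 9097 genes, and the smallest difference that passed was 1.02 in L6-R against L3-S, 1.21 in L3-S against L3-B and 0.87 in L6-R against L3-B, which depends on the spread of each gene and is no limit of detection.

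**Figure D4:**
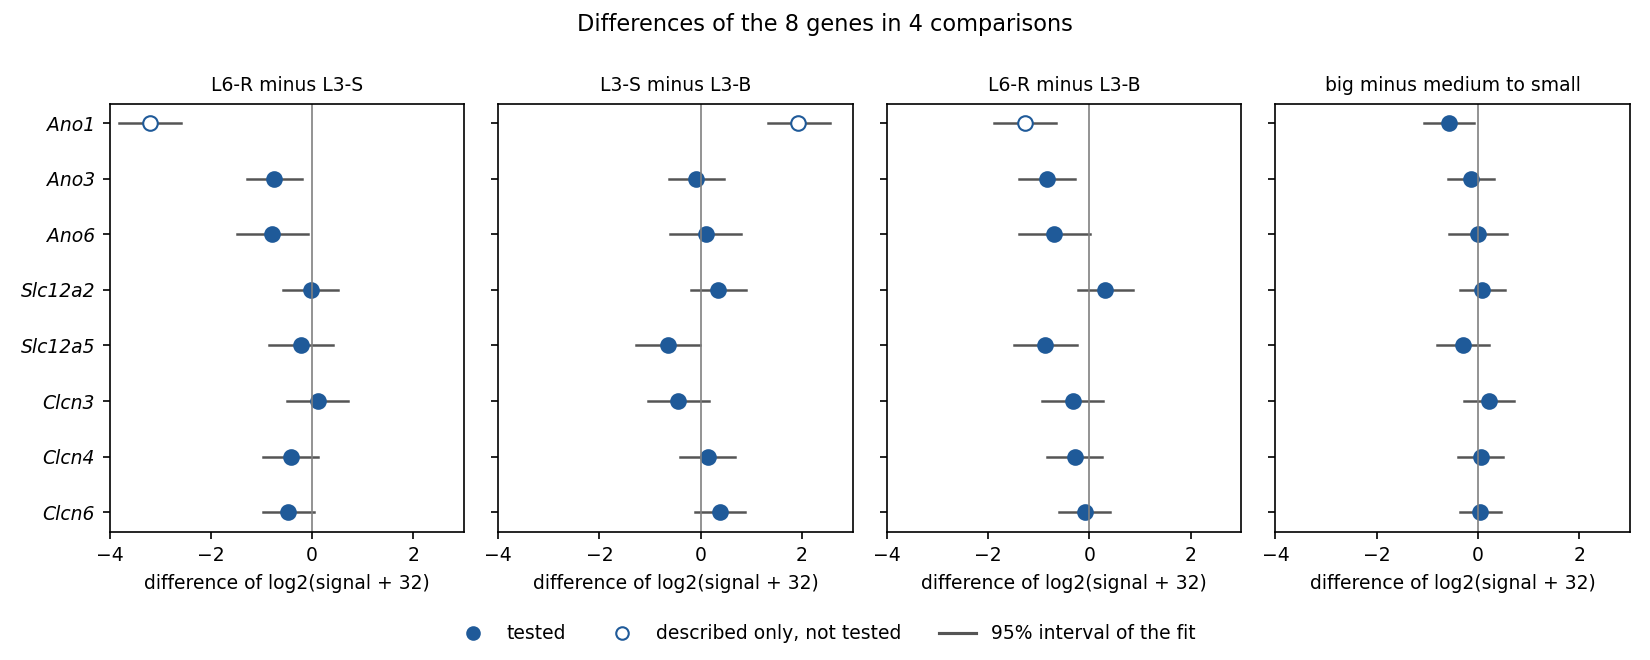
Difference of log2(signal + 32) with the 95% interval of the limma fit for the 8 genes in 4 comparisons (filled, tested; open, Ano1 between codes, described only). None of the filled points passed after adjustment over 9097 genes, and Ano1 lies at -3.20 in L6-R minus L3-S. The intervals of the open points are no test, since Ano1 was picked on these values.

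Other genes of chloride transport, with kinases and partner proteins linked to it, were set beside them in 8 lists of 57 genes. Of these, 47 had a probe set in the table and 25 were bright enough to test. Over these lists 1 gene rose and 0 fell in L6-R against L3-S, 3 rose and 1 fell in L6-R against L3-B, and 0 passed in L3-S against L3-B or between diameters. Over all genes, 1.26% rose and 1.91% fell in the first comparison, 4.66% rose and 2.85% fell in the second, and 0.923% rose and 0.0989% fell in L3-S against L3-B. Their median differences of -0.01, 0.09, 0.06 and -0.06 were close to those of all genes tested (-0.01, 0.02, 0.03 and -0.02). The gene that rose in both L6-R comparisons was Trpv1, which is not a chloride channel. It was on the list of proteins that couple to anoctamins and also among the small-diameter markers. Kcnt1, the other tested gene of that list, had its smallest p in L3-S against L3-B (-0.61, adjusted p = 0.394).

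Both tested CLIC genes, which encode small proteins found in soluble and membrane forms, passed in L6-R against L3-B and in no other comparison. Clic1 had signal intensities of 259 and 474 for L3-B, 682 and 475 for L3-S, and 1168 and 1321 for L6-R, and rose by 1.73 ± 0.31 in L6-R against L3-B (n = 2 arrays per code, limma adjusted p = 0.0124). Clic4 had 185 and 279, 413 and 422, and 442 and 540, and rose by 1.00 ± 0.23 in the same comparison (adjusted p = 0.0371). Against L3-S, Clic1 stood at 1.08 (adjusted p = 0.118) and Clic4 at 0.21 (adjusted p = 0.716). The Clic1 call held in each of 19 alternatives, some of which were the same fit. The Clic4 call was lost in 7 of 19, namely without the L3-B big array (0.82, adjusted p = 0.106), without either L6-R array (1.00 in both, adjusted p = 0.259 and 0.237), with the mean of probe sets (0.61, adjusted p = 0.196), with no filter (adjusted p = 0.0769), with a pseudocount of 1 (adjusted p = 0.0626) and with every probe set tested (adjusted p = 0.0565). Satellite glia and Schwann cell markers, with 5 of 11 higher, moved in the same comparison, and their part in it was not tested.

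The other lists held no gene that passed. Slc12a7 (KCC4), an exporter like Slc12a5, stood at 1.83 ± 0.40 in L3-S against L3-B (limma adjusted p = 0.0896). Its signals were 48 and 7 for L3-B, 118 and 229 for L3-S, and 50 and 88 for L6-R. With means of 5.80 in L3-B, 7.63 in L3-S and 6.63 in L6-R, Slc12a7 passed the filter through L3-S. Slc12a9 stood at 0.67 in L6-R against L3-B (adjusted p = 0.204), and 4 more SLC12 genes were too dim to test. Of the kinases that switch Slc12a2 on and KCC proteins off, Stk39 (SPAK) stood at -0.69 in L6-R against L3-B (adjusted p = 0.104) and Oxsr1 at -0.42 in L3-S against L3-B (adjusted p = 0.661). Among other ClC genes, Clcn5, an endosomal exchanger, stood at 0.80 in L6-R against L3-B (adjusted p = 0.0927), and Ostm1, the beta subunit of ClC-7, at -0.47 in L6-R against L3-S (adjusted p = 0.363). Ttyh1 stood at 1.35 in L3-S against L3-B (adjusted p = 0.216), and Pacc1, the acid-activated chloride channel, at 0.83 in L6-R against L3-S (adjusted p = 0.156). Of the SLC4 exchangers, Slc4a10 stood at -0.69 in L6-R against L3-B (adjusted p = 0.185) and Slc4a3 at -0.61 in big against medium to small pools (adjusted p = 0.998).

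**Figure D5:**
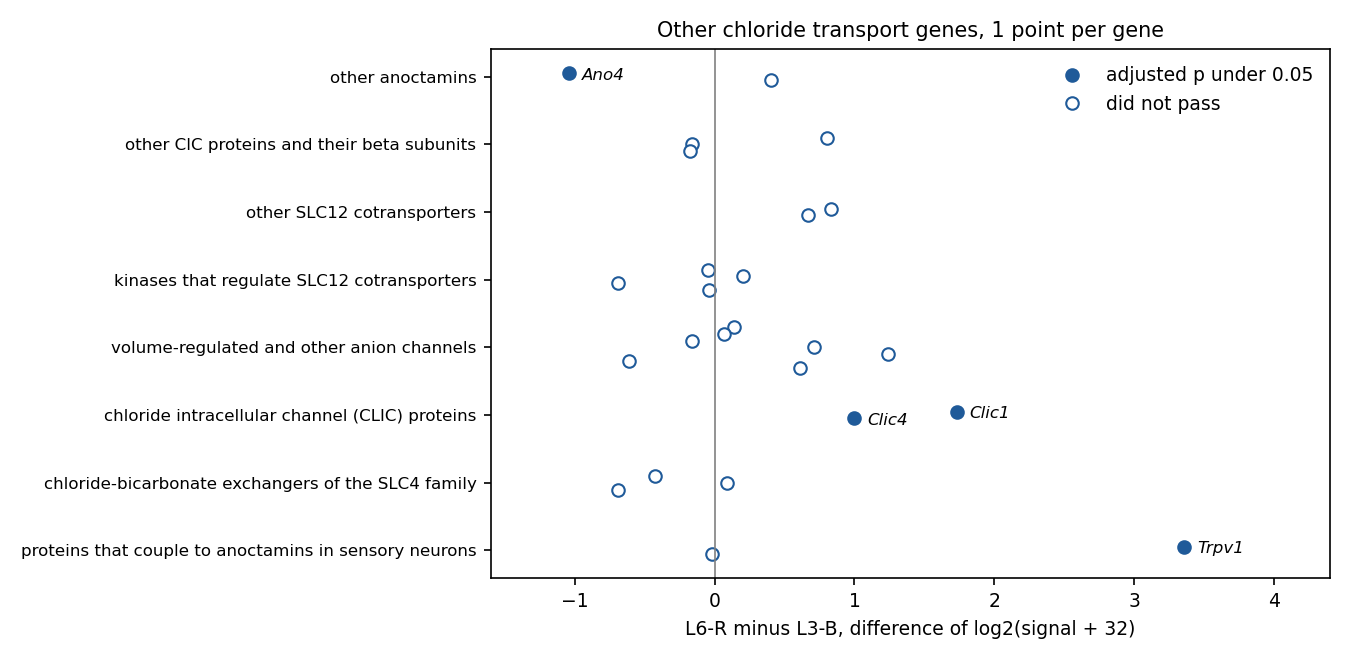
Difference of log2(signal + 32) in L6-R minus L3-B for 25 tested genes of 8 lists, with 1 point per gene (filled, adjusted p under 0.05; open, did not pass). The lists hold genes of chloride transport and kinases and partner proteins linked to it, Trpv1 among the partners. Trpv1, Clic1 and Clic4 lie to the right at 3.36, 1.73 and 1.00, and Ano4 to the left at -1.04.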

How the data were processed

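The deposited table holds the authors' linear signal intensity for each probe set on 6 arrays. The trimmed mean of each array (2% off each end) was 150.0, so the values were taken as already scaled. The summary method is not given in the sources used here. Between 55.3% and 59.5% of the probe sets of an array were under 32. Of the probe sets, 34945 carried 1 gene symbol, 932 several and 9160 none.

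R 4.3.3 with limma 3.58.1 fitted title code and size class additively to log2(signal + 32) of each gene's brightest probe set on all 6 arrays (lmFit and eBayes, 2 residual and 6.46 prior degrees of freedom). The fit assumes that codes differ alike in both classes. P-values were two-sided and adjusted by Benjamini and Hochberg over 9097 genes, with a threshold of 0.05, and the fit was tested on simulated data. The members and lists were chosen with earlier results of these data known. Named were the 8 genes, from each pathway list the genes past the threshold or otherwise the 2 with the smallest p, the 3 brightest markers of each marker list, and the 5 genes most correlated with a member spanning at least 2 log2. Ano10, Ano8, Ano9, Kcnt1, Col1a1, Pecam1, Cdh5, Tagln, Ptprc, Cd68 and Best1 were named after their values were seen. Alternatives were quantile normalization, pseudocounts of 1 and 100, other filters, other uses of probe sets, other shrinkage, array weights, other covariates, fewer arrays and leaving out each array.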

Additional observations from a re-analysis of the deposited data

Results flagged for a closer look

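In 2 genes the matched arrays of the diameter classes lay in opposite directions, each by at least the residual SD of the gene. The difference between the classes was not tested, since 1 array for each combination leaves no residual for an interaction. For Ano6, L3-S minus L3-B was -0.53 in the big pair and 0.73 in the medium to small pair, so the pairs differed by -1.27 log2. The Actb ratio of these arrays was 13.9 (big) and 3.73 (medium to small) in L3-B, and 5.42 and 12 in L3-S. In L3-B and in L3-S the array with the higher ratio also had the higher Ano6 signal. In L6-R it did not, with ratios of 8.31 and 8.42 and signals of 521 and 513. The part of RNA quality was not tested. The second Ano6 probe set had 293 to 310 in the 4 arrays of L3-B and L3-S. For Slc12a2, L6-R minus L3-S was -0.30 in the big pair and 0.24 in the medium to small pair, a gap of -0.54. No code and diameter class had more than 1 array, so no array could be compared with replicates of its own kind.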

How the results depend on the processing

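Of 580 values of the 8 genes under the alternatives, 28 changed sign, 13 gained a call, 13 of Ano1 between codes moved by more than its spread with the same sign, and the cause was not tested. Ano6 between diameters, at -0.00, ran from -0.31 to 0.32 with an array left out. In L6-R against L3-S the count of genes passing was 2 with the Actb ratio as covariate (Ano3 and Ano6) and 0 otherwise, also with each array left out. In L6-R against L3-B it was 3 with that covariate, 1 with the mean of probe sets, 2 with only the codes compared, and 0 with the other settings on all 6 arrays. Leaving out either array of the code not compared gave the same fit as only the codes compared. Such fits are counted more than once among the 580 values, the gained calls and the 19 alternatives. In the other comparisons it was 0 throughout. The gap between Slc12a2 and Slc12a5 was 1.29 in L3-S against L3-B, 0.42 in L6-R against L3-S and 1.71 in L6-R against L3-B with a pseudocount of 1. With a pseudocount of 100 the first and last were 0.71 and 0.78, and with the mean of probe sets the first and second were 0.67 and 0.62. Ano1 in L6-R against L3-S ran from -4.87 (pseudocount 1) to -1.96 (mean of probe sets), in L6-R against L3-B from -2.56 to -0.63 and in L3-S against L3-B from 1.33 to 2.34. With the mean of probe sets, Slc12a2 and Clcn3 in L6-R against L3-S were 0.40 and -0.02, Clcn4 and Clcn6 in L6-R against L3-B were 0.05 and 0.02, and Slc12a2 and Clcn4 between diameters were -0.05 and -0.16; with array weights Slc12a2 between diameters was -0.05. With an array left out, the ranges of those that changed sign in L6-R against L3-S were -0.28 to 0.22 (Slc12a2), -0.62 to 0.18 (Slc12a5) and -0.19 to 0.40 (Clcn3). In L3-S against L3-B they were -0.32 to 0.14 (Ano3), -0.38 to 0.58 (Ano6) and -0.10 to 0.37 (Clcn4), and in L6-R against L3-B -0.69 to 0.03 (Clcn3). Between diameters they were -0.27 to 0.02 (Ano3), -0.02 to 0.25 (Slc12a2), -0.02 to 0.42 (Clcn3), -0.08 to 0.21 (Clcn4) and -0.01 to 0.09 (Clcn6). Over all genes the counts passing ran from 107 to 994 (main 289) in L6-R against L3-S, 299 to 1590 (683) in L6-R against L3-B, 14 to 512 (93) in L3-S against L3-B and 0 to 2 (0) between diameters. Signals near 32 limit what can be said of Ano1 in L6-R, Ano3 and Slc12a5.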

Other observations

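Best1, which encodes the calcium-activated chloride channel bestrophin-1, was at or under 7 in all L3-B and L3-S arrays and well above 32 in L6-R. Its only probe set had signal intensities of 4 and 2 for L3-B, 7 and 3 for L3-S, and 93 and 109 for L6-R. Its mean of 5.80 log2 was under the filter, so it was not among the genes tested. With no filter on dim genes it rose by 1.83 ± 0.20 in L6-R against L3-S (n = 2 arrays per code, limma adjusted p = 0.0249 over 18194 genes) and by 1.93 ± 0.20 against L3-B (adjusted p = 0.00936). Best1 was named after its values were seen. Ano1, the other calcium-activated chloride channel described, had its lowest signals in the same 2 arrays.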
